A study of Mus musculus with 10 samples.

Results

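The renin-angiotensin genes of implanted lung tumors were read out in 8 members chosen by name, Ace, Agt, Agtr1a, Agtr2, Ren1, Enpep, Mme and Atp6ap2, among the 55401 genes of the count table. RNA was sequenced from 10 subcutaneous (s.c.) KPN1.1 tumors, 5 from mice given liraglutide and 5 from mice given the vehicle. Ace, the gene of angiotensin-converting enzyme, had a mean of 41.9 ± 14.6 CPM (SD, n = 5; counts scaled to library size) in vehicle-treated tumors and 89.4 ± 28.2 CPM (SD, n = 5) in liraglutide-treated tumors. The other members that were abundant enough to fit, Enpep, Mme and Atp6ap2, had fitted log2 fold changes of 0.58, 0.25 and 0.03, and refits that each dropped 1 tumor gave Mme 0.01 to 1.09 and Ace 0.90 to 1.30. Agt, Agtr1a, Ren1 and Agtr2, which encode the precursor, the receptors and the enzyme that starts the pathway, were too low to pass the filter on counts, with 0 to 21 counts per tumor.

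KPN1.1 is a mouse lung adenocarcinoma line that carries the NINJA neoantigen cassette, and all 10 tumors were grown from this line. All hosts were obese male C57BL/6J mice, 7 to 17 weeks old when 75000 cells were injected into the flank, with obesity from a diet of 60% of calories as fat. Liraglutide, an agonist of the glucagon-like peptide-1 receptor, was injected intraperitoneally each day at 0.2 μg per g body weight from when tumors could be felt, and vehicle mice received phosphate-buffered saline by the same route. Tumors were taken 19 to 22 days after injection, and a frozen fragment of each gave the RNA, so that tumor cells were sequenced together with the host cells in the fragment. The model is therefore 1 cell line in the flank of immunocompetent hosts, not a tumor in the lung.

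In the classical pathway renin, encoded by Ren1, cuts angiotensinogen, encoded by Agt, into angiotensin I, and the peptidase ACE removes a dipeptide from its end to give angiotensin II, which acts on the type 1 and type 2 receptors encoded by Agtr1a and Agtr2. ACE also degrades bradykinin, and lung endothelium is known as a rich source of it. Aminopeptidase A, encoded by Enpep, and neprilysin, encoded by Mme, shorten angiotensin peptides further, and ATP6AP2 is both a binding protein for prorenin and an accessory part of the vacuolar proton pump. Liver and kidney supply most circulating angiotensinogen and renin, so a tissue can hold the enzyme and the receptors without making the precursor.

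Ace has a pair of annotated starts, and both are shown here because the deposited value for Ace is a single count per tumor that sums transcripts from either. The first start makes the long somatic enzyme, and the second, 7241 bases downstream inside the gene, is known for the short form of the testis. On the RefSeq annotation of GRCm38.p6 the gene runs on chromosome 11 from 105967948 to 105989964, on the plus strand. Each sequence covers 250 bases before to 50 bases after the start, 5′ to 3′ on the plus strand, from chr11:105967698-105967997 for the somatic start and chr11:105974939-105975238 for the intronic start. Capitals mark the motifs found by a search of both strands.
Ace somatic start: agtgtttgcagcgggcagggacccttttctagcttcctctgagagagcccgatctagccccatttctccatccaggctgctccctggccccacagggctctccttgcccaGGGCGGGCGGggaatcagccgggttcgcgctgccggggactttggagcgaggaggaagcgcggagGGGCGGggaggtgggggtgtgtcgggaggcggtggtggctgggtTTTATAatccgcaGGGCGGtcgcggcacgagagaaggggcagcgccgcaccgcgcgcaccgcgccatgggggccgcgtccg
Ace intronic start: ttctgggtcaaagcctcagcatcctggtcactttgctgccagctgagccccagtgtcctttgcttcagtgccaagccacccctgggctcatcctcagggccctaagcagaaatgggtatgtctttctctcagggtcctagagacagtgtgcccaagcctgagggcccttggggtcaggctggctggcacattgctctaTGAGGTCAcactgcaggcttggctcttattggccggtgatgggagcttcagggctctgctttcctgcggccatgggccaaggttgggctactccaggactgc
The window at the somatic start held the GC box letters GGGCGG 4 times, of which the first 2 matches overlap, and TATAAA once on the opposite strand, where it reads TTTATA as printed. Counted from the start base as 0, the GC boxes began at -140, -136, -75 and -18 and the TATAAA match at -31. The window at the intronic start held TGAGGTCA, which resembles a cyclic AMP response element, once, at -52. Of 32851 mouse promoter windows of the same length, 35.7% held GGGCGG, 13.6% held TATAAA and 2.17% held TGAGGTCA. CTCAAG, the core letters bound by the lung lineage factor NKX2-1, was in neither window and in 15.9% of all windows. Which start the Ace reads came from was not analysed here.

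Total counts were between 9927942 and 14480593 per tumor, and a count of 3, taken as the floor of detection, stood for 0.207 to 0.315 CPM. CPM are counts as a share of the library size after TMM scaling. A filter on low counts left 17464 genes, among them 4 of the 8 members. Differences between treatments were fitted over all of these with edgeR's quasi-likelihood method, and at a Benjamini-Hochberg adjusted p under 0.05 with an absolute log2 fold change over 0.58, 0 genes (0%) were called. The smallest adjusted p was 0.482, 1675 genes (9.59%) had an unadjusted p under 0.05, and DESeq2 called 17 of the 3796 genes (0.448%) to which it gave an adjusted p. The labelled cell type was checked on lung epithelial markers. Krt8, Krt18, Krt19 and Cdh1 had at least 6082 counts in every tumor, the lineage gene Nkx2-1 had 175 to 1776, and Epcam had 2 to 67. The surfactant gene Sftpc, which marks alveolar type 2 cells, had 0 to 80 counts, whereas the surfactant gene Sftpb had 777 to 6511. Sftpa1 had 0 to 232 counts and Scgb1a1 had 8 to 269.

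Because Ace was chosen as higher with liraglutide, its values by treatment are given as a description with no test. In the vehicle-treated tumors 1 to 5 Ace (ENSMUSG00000020681.14) was at 31.9, 34.9, 29.1, 63.5 and 50.3 CPM. In the liraglutide-treated tumors 1 to 5 it was at 58.3, 83.7, 84.6, 84.8 and 136 CPM. Vehicle tumors 4 and 5 were the highest of their group, and the lowest liraglutide tumor, number 1, lay below vehicle tumor 4, so the groups overlapped by this 1 pair while 4 of 5 liraglutide tumors lay above every vehicle tumor. Liraglutide values wholly above vehicle values were found for 0.607% of all tested genes and for 0 of the 4 tested members. The fitted log2 fold change was 1.09 (SE 0.26), or 2.13-fold. The counts behind these values ran from 277 to 759 with vehicle and from 675 to 1822 with liraglutide, far above the floor. Of all tested genes, 144 (0.825%) had a log2 fold change at least as high as that of Ace, and 47.4% had one above 0. In a bulk fragment, more cells that express Ace and more Ace RNA per cell cannot be told apart. Refitted without single tumors, Ace had log2 fold changes between 0.90, when liraglutide tumor 5 was dropped, and 1.30, when vehicle tumor 4 was dropped. Ace was among the genes that DESeq2 called (0.448% of those with an adjusted p), from which nothing is read, since the choice of the gene used the same contrast.

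**Figure D1:**
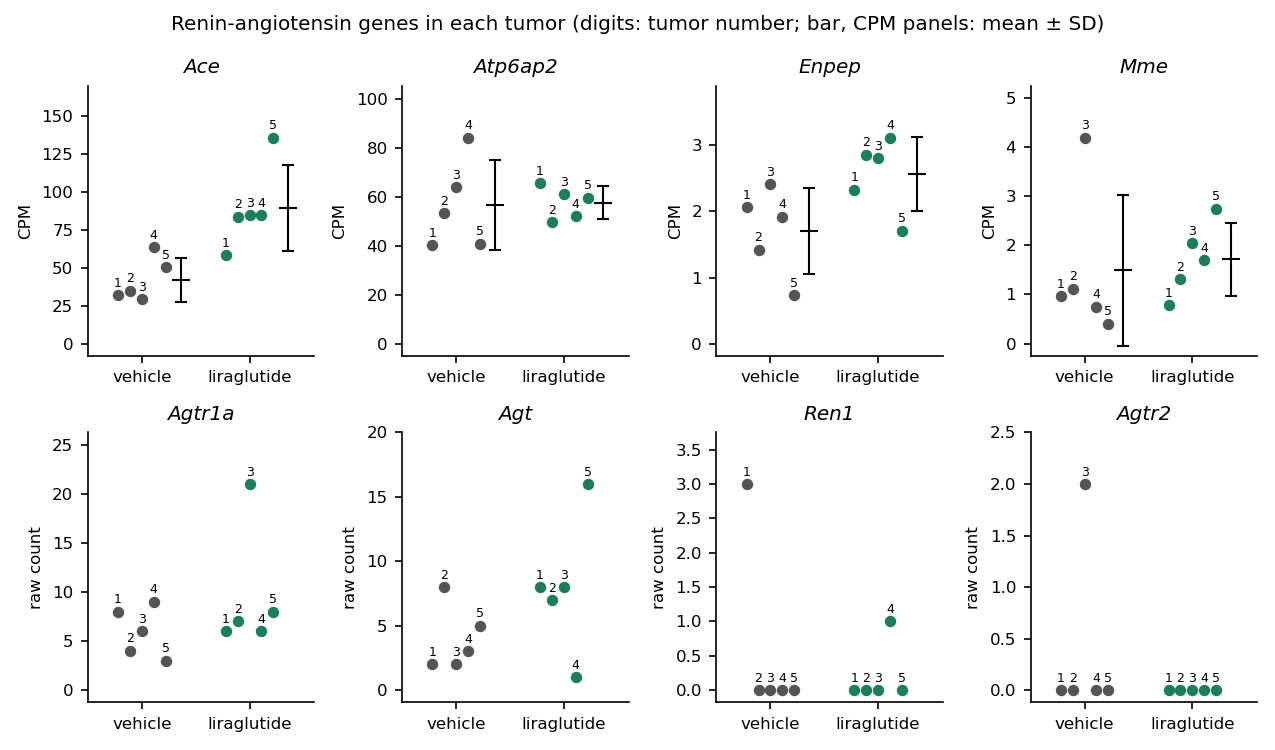
The 8 renin-angiotensin genes in each of the 10 tumors, in CPM for Ace, Atp6ap2, Enpep and Mme (upper row, bars show the mean ± SD, n = 5) and as raw counts for Agtr1a, Agt, Ren1 and Agtr2 (lower row). Each point is a tumor with its number. Ace lay between 29.1 and 63.5 CPM with vehicle and between 58.3 and 136 CPM with liraglutide, whereas Ren1 and Agtr2 had no count in most tumors.

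Upstream of Ace, the precursor and its first enzyme gave few reads. Agt (ENSMUSG00000031980.10) had 2, 8, 2, 3 and 5 counts in vehicle tumors 1 to 5 and 8, 7, 8, 1 and 16 counts in liraglutide tumors 1 to 5. Liraglutide tumor 5, which had the most Ace, also had the most Agt, and liraglutide tumor 4 had the least Agt of all tumors. Summed over tumors and divided by library size, Agt was 1.9 times as high with liraglutide, 40 counts against 20 (95% exact interval 1.09 to 3.44). That interval covers counting error alone and not the spread between tumors, whose ranges overlapped. Ren1 (ENSMUSG00000070645.5) had 3 counts in vehicle tumor 1, 1 count in liraglutide tumor 4 and 0 in the other 8 tumors. Renin RNA was thus at or under the floor in all tumors, and no fold is given. Agt lies on chromosome 8 (124556587 to 124569706, minus strand) and Ren1 on chromosome 1 (133350674 to 133360320, plus strand) of GRCm38.p6.

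Atp6ap2 (ENSMUSG00000031007.2), the prorenin-binding pump component, was abundant. It was at 40.3, 53.5, 64 and 84.4 CPM in vehicle tumors 1 to 4 and at 40.9 CPM in vehicle tumor 5. In liraglutide tumors 1 to 5 it was at 65.8, 49.7, 61.1, 52.1 and 59.8 CPM. The liraglutide values all lay inside the range of the vehicle values, with vehicle tumor 4 the highest of the 10. The group means were 56.6 ± 18.4 and 57.7 ± 6.67 CPM (SD, n = 5 each), and the log2 fold change was 0.03 (SE 0.20). Its sign turned when single tumors were left out, from -0.07 without vehicle tumor 1 to 0.23 without vehicle tumor 4. Prorenin binding is not the only use of this protein, and Atp6ap1, the other accessory pump gene listed, had 104 ± 7.04 and 106 ± 6.19 CPM (SD, n = 5 each) with vehicle and liraglutide.

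Both angiotensin II receptors were low. Agtr1a (ENSMUSG00000049115.15), the type 1 receptor through which vessels constrict, had 8, 4, 6, 9 and 3 counts in vehicle tumors 1 to 5 and 6, 7, 21, 6 and 8 counts in liraglutide tumors 1 to 5. Liraglutide tumor 3 was the only tumor above 9 counts, and the other 4 of its group lay inside the vehicle range. The ratio of the summed counts, 48 against 30 after scaling, was 1.52 (95% exact interval 0.945 to 2.49, counting error alone), so a difference was not detectable at this depth. Agtr2 (ENSMUSG00000068122.10), the type 2 receptor, had 2 counts in vehicle tumor 3 and 0 in the other 9 tumors, which allows up to 0.207 to 0.304 CPM in a tumor with no count. Agtr1b, the second mouse gene of the type 1 receptor, had 1 count in all 10 tumors together.

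The enzymes that shorten the peptides came next. Enpep (ENSMUSG00000028024.14), which removes the acidic residue from the amino end of angiotensin II, was at 2.07, 1.42, 2.41, 1.92 and 0.733 CPM in vehicle tumors 1 to 5. It was at 2.33, 2.86, 2.81, 3.12 and 1.71 CPM in liraglutide tumors 1 to 5. The groups overlapped, with 3 of 5 liraglutide tumors above every vehicle tumor. Tumor 5 was the lowest in Enpep in either group, whereas liraglutide tumor 5 was the highest in Ace. The means were 1.71 ± 0.655 and 2.57 ± 0.555 CPM (SD, n = 5 each), with a log2 fold change of 0.58 (SE 0.31). Vehicle tumor 5 bore on this value most, and without it the log2 fold change was 0.39 (SE 0.25). The counts were 9 to 37 per tumor.

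Mme (ENSMUSG00000027820.12), the gene of neprilysin, which also degrades bradykinin and natriuretic peptides, was at 0.967, 1.12, 4.2, 0.753 and 0.407 CPM in vehicle tumors 1 to 5. It was at 0.777, 1.31, 2.05, 1.7 and 2.75 CPM in liraglutide tumors 1 to 5. Vehicle tumor 3 was the highest of the 10 and vehicle tumor 5 the lowest, so the liraglutide range lay wholly inside the vehicle range. The means were 1.49 ± 1.54 and 1.72 ± 0.748 CPM (SD, n = 5 each), and the log2 fold change was 0.25 (SE 0.57). This value moved with several single tumors. Without vehicle tumor 3 it was 1.09 (SE 0.42), and it was 0.12, 0.09 and 0.01 without vehicle tumors 1, 4 and 5 and 0.02 without liraglutide tumor 5. Without vehicle tumor 2 it was 0.17, without liraglutide tumor 3 it was 0.18, and without liraglutide tumor 1 it was 0.43.

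Levels were compared between members per kilobase of exon, on the exon lengths of GENCODE M39. Atp6ap2, at 12.7 ± 2.90 CPM per kilobase over the 10 tumors (SD), and Ace, at 11.8 ± 5.86, headed the order and overlapped in range. Enpep followed at 0.275 ± 0.0934, with its highest tumor at 0.401 where the lowest Ace tumor had 5.204 CPM per kilobase. Agtr1a (0.139 ± 0.0780), Mme (0.135 ± 0.0967) and Agt (0.0602 ± 0.0419) overlapped each other and Enpep in range. Ren1 and Agtr2 came last, with averages of 0.0182 and 0.00610 that rest on 4 and 2 counts. Ace RNA was thus measured in tumors where Ren1 RNA was at or under the floor and Agt had at most 16 counts.

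**Figure D2:**
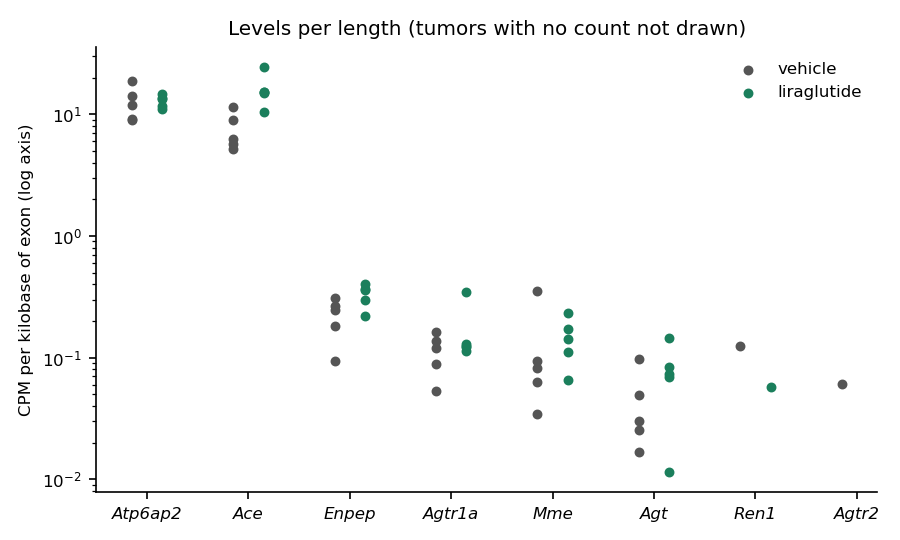
Levels of the 8 genes in CPM per kilobase of exon on a log axis, ordered by their mean over the 10 tumors. Points are single tumors by treatment, and tumors with no count are not drawn. Atp6ap2 and Ace, at 12.7 and 11.8 on average, lay apart from the other members, which averaged 0.275 or less.

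The rest of the pathway was read from 5 lists with 44 genes, of which 43 were matched (Ren2 was not) and 30 passed the filter. With edgeR 0 of the 30 were called, as were 0% of all tested genes, and with DESeq2 also 0. At an unadjusted p under 0.05 there were 6 of 30, all higher with liraglutide, where 3.97% of all tested genes were higher at that p. The lists were chosen with earlier results of these data known. Nothing is therefore read from this share or from the p values of listed genes below. The 30 log2 fold changes were 17 above and 13 below 0 with a median of 0.04, and the median over all tested genes was -0.02. With library size alone as the scaling, the median over all genes was 0.04 and 55.8% of them lay above 0.

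Of the 13 other peptidases tested, 6 lay above 0 and 7 below, with a median of -0.06. Mcpt4, a mast cell chymase that can cut angiotensin I, was at 48.3 ± 32.8 and 120 ± 88.3 CPM (SD, n = 5 each; log2 fold change 1.31, SE 0.52, edgeR unadjusted p = 0.0284, adjusted p = 0.501). Of the other mast cell proteases on the peptidase list, Cma1 had a log2 fold change of -0.20 (SE 0.44) and the carboxypeptidase Cpa3 one of -0.06 (SE 0.59). Ctsa, a lysosomal carboxypeptidase that also cuts angiotensin I, was at 84.3 ± 12.5 and 103 ± 12.1 CPM (SD, n = 5 each; log2 fold change 0.29, SE 0.12, edgeR unadjusted p = 0.0412, adjusted p = 0.515). Ctsg had 2 to 10 counts per tumor and Klk1 0 to 3, and neither passed the filter.

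All 4 tested genes of the receptor list lay above 0, with a median of 0.36, and 0 were called. Mas1, the receptor of a shorter angiotensin peptide with effects opposed to those of angiotensin II, had a mean of 1.101 ± 0.813 CPM with vehicle and 2.52 ± 1.57 CPM with liraglutide (SD, n = 5 each; log2 fold change 1.17, SE 0.55, edgeR adjusted p = 0.527). Agtrap, whose product binds the type 1 receptor and draws it from the surface, had a log2 fold change of 0.44 (SE 0.25, edgeR adjusted p = 0.582). Igf2r, which can take up renin and prorenin besides its main ligands, had one of 0.27 (SE 0.12, edgeR unadjusted p = 0.0448, adjusted p = 0.515). The bradykinin receptors Bdkrb1 and Bdkrb2 had 2 to 14 and 4 to 22 counts per tumor and did not pass the filter, and Mrgprd had 0 in every tumor. Of the kinin and tachykinin precursors, whose peptides ACE and neprilysin degrade, Kng2 had 0 to 6 counts, Kng1 0 to 2 and Tac1 0 to 3.

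Downstream of the type 1 receptor, all 9 listed genes that its signaling is known to induce were tested, and 6 lay above 0 and 3 below with a median of 0.35. Ccn2, a matricellular growth factor, was at 41.5, 40.9, 61.9, 76.2 and 46.6 CPM in vehicle tumors 1 to 5 and at 98.1, 50.9, 98.8, 91.2 and 89.4 CPM in liraglutide tumors 1 to 5. All liraglutide tumors but number 2 had more Ccn2 than every vehicle tumor. Its log2 fold change was 0.68 (SE 0.22, edgeR unadjusted p = 0.010, adjusted p = 0.482). Edn1, the gene of the constrictor peptide endothelin, was at 0.644 ± 0.398 and 1.23 ± 0.215 CPM (SD, n = 5 each; log2 fold change 0.90, SE 0.38, edgeR unadjusted p = 0.037, adjusted p = 0.512). The adhesion molecule gene Icam1 had a log2 fold change of 0.88 (SE 0.46), and the early response gene Fos had one of -0.67 (SE 0.45). Many other pathways also induce these genes.

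The aldosterone arm was listed from synthesis to target genes. The steroid synthases Cyp11b1 and Cyp11b2 had 0 counts in every tumor, and of the 4 tested genes of this list 1 lay above 0. That gene was Scnn1a, a subunit of the epithelial sodium channel, at 1.38, 1.62, 1.78, 8.28 and 6.03 CPM in vehicle tumors 1 to 5 and at 7.08, 3.59, 13.7, 9.82 and 19.5 CPM in liraglutide tumors 1 to 5. Vehicle tumors 4 and 5 were the highest of their group and liraglutide tumor 5 the highest of all, as for Ace. Its log2 fold change was 1.49 (SE 0.58, edgeR unadjusted p = 0.0253, adjusted p = 0.499). The other listed channel subunits, Scnn1b with 0 to 6 counts per tumor and Scnn1g with 0 to 23, did not pass the filter. The mineralocorticoid receptor gene Nr3c2 had a log2 fold change of -0.23 (SE 0.23, edgeR adjusted p = 0.736).

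**Figure D3:**
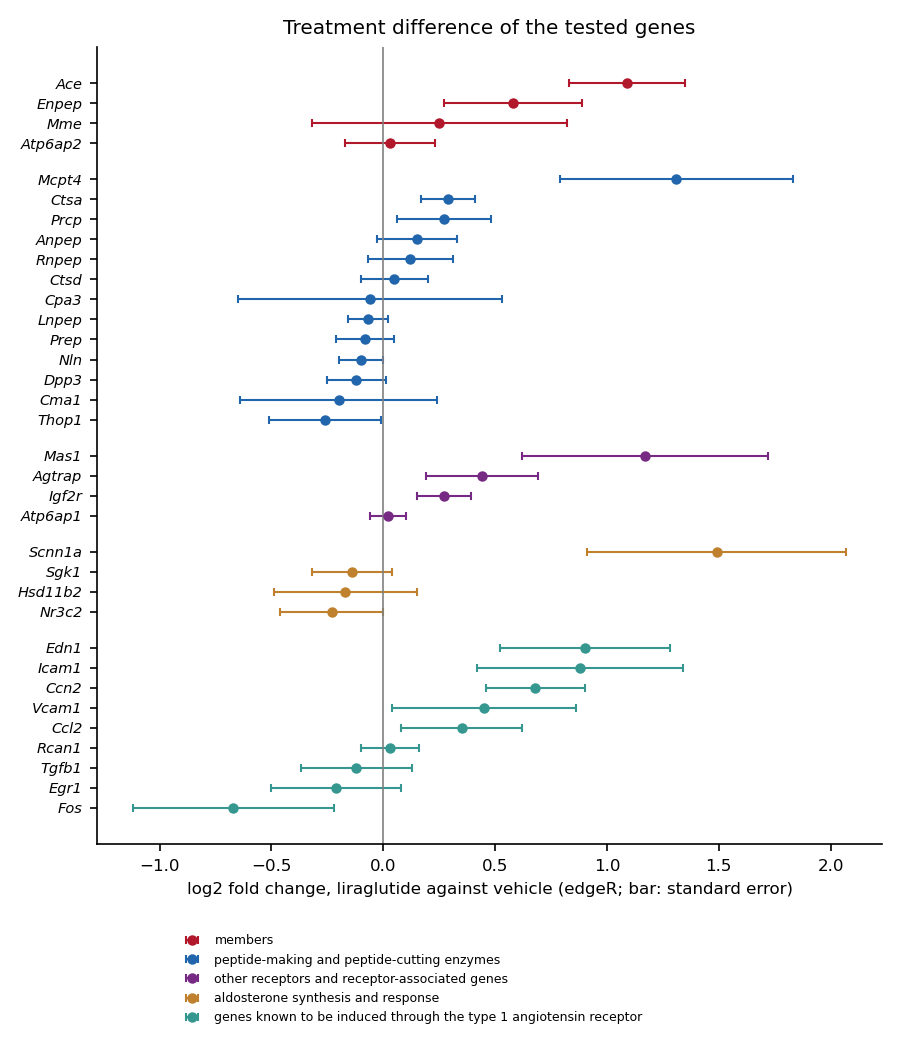
Log2 fold changes with liraglutide against vehicle (edgeR, bars show the SE) of the 4 members and the 30 listed pathway genes that passed the filter, by list. Ace stood at 1.09, with Enpep at 0.58, Mme at 0.25 and Atp6ap2 at 0.03, and the listed genes lay on both sides of 0, 17 above and 13 below.

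The difference between treatments was set beside markers of the cell types that the fragment could hold, none of which had a gene called. Endothelial markers summed to 131 to 222 CPM with vehicle and to 140 to 182 CPM with liraglutide, with 8 of 12 log2 fold changes above 0 and a median of 0.01. T and NK cell markers were above 0 in 8 of 8 tested (median 0.71) and summed to 6.08 to 30.1 and 9.59 to 38.2 CPM. Skeletal muscle markers were above 0 in 8 of 8 (median 0.83, 43.4 to 276 against 100 to 376 CPM) and keratinocyte markers in 5 of 5 (median 2.36, 8.43 to 20.3 against 7 to 229 CPM). Mast cell markers were above 0 in 2 of 5 (median -0.01), with sums of 71.3 to 320 CPM with vehicle (median 89.9) and 172 to 314 CPM with liraglutide (median 201). Most of these sums was Mcpt1, with a log2 fold change of 0.78 (SE 0.41), while the receptor subunit genes Fcer1a and Ms4a2 had 3 to 16 and 0 to 11 counts. Macrophage markers were above 0 in 9 of 10 (median 0.25), but their sum was 446 to 996 CPM with vehicle (median 834) and 477 to 628 CPM with liraglutide (median 596). The exception was Mrc1, the gene that made up most of that sum, with a log2 fold change of -0.74. Lung epithelial markers were above 0 in 5 of 9 (median 0.27, 4690 to 10200 against 5040 to 7470 CPM). Medians were 0.32 for pericyte and smooth muscle (8 of 10 above 0, 262 to 381 against 247 to 525 CPM), -0.04 for fibroblast (4 of 10, 1420 to 3540 against 1920 to 3580 CPM), -0.08 for adipocyte (1 of 5, 129 to 256 against 118 to 248 CPM) and 0.14 for neutrophil markers (3 of 4, 5.86 to 13.5 against 7.6 to 13.5 CPM). Ly6g, which defines neutrophils, was at 0 in every tumor, and no other matched marker on these lists was (the keratinocyte gene Lor was not matched). The part of these cell types in the difference of Ace was not tested.

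Variation between tumors of the same treatment, which the choice of the members did not use, was compared with these markers after subtracting each treatment's mean. The score of a list was the mean of its standardized log2 CPM, and 24 relations of 4 members with 6 lists were tested over the 10 tumors by two-sided exact permutation within treatments. Of these, 0 had an adjusted p under 0.05 and 2 an unadjusted p under 0.05. The highest r of Ace was with the T and NK cell score, at r = 0.74 (exact permutation p = 0.0314, adjusted p = 0.377) and rho = 0.78 (exact permutation p = 0.0207, adjusted p = 0.248), and r was 0.63 without the 2 tumors farthest from the median score. The order changed with the tumor number as a replicate block, where r of Ace was 0.62 with the macrophage score and 0.53 with the T and NK cell score. Among the markers of this list, Nkg7 and Cd3e followed Ace most closely, at r = 0.84 and 0.81, while Trac was at 0.13. The highest r of Mme was with the endothelial score, at r = 0.81 (exact permutation p = 0.00722, adjusted p = 0.173) and rho = 0.82 (exact permutation p = 0.00396, adjusted p = 0.095), with r = 0.68 without vehicle tumors 3 and 4, the 2 farthest from the median score.

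The relation of Ace with the endothelial score did not pass the test. Its r was -0.43 (exact permutation p = 0.266, adjusted p = 0.553) and its rho -0.38 (exact permutation p = 0.337, adjusted p = 0.674), and r was 0.02 without vehicle tumors 3 and 4. When 1 tumor was left out, r ran from -0.68, without liraglutide tumor 5, to -0.19, without vehicle tumor 4. Vehicle tumor 3 had the highest endothelial score and the lowest Ace of its group, and vehicle tumor 4 the reverse. With the fibroblast score r was -0.50 (exact permutation p = 0.184, adjusted p = 0.553), which turned to 0.22 without vehicle tumors 4 and 5. Without liraglutide tumor 5 alone it was -0.81. With the macrophage score r was 0.43 (exact permutation p = 0.236, adjusted p = 0.553). For Ace with the pericyte score (r = -0.22) and the adipocyte score (r = 0.25) the adjusted p was 0.836 in the exact permutation test. Apart from Mme with the endothelial score, the other members ranged from r = -0.40 for Enpep with T and NK cells to 0.66 for Mme with fibroblasts.

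A further 5 lists were set against the members after the data had been seen. They are given as a description, and the permutation p values computed for them are not used. The mast cell score had an r with Ace of 0.86 and a rho of 0.95 over the 10 tumors, and r was 0.85 without vehicle tumor 1 and liraglutide tumor 1, the 2 farthest from the median score. Vehicle tumor 4, which after subtraction of the treatment means was highest in both this score and Ace, was kept in that value. Each of its 5 markers was above 0, from 0.53 for Tpsab1 and Hdc to 0.76 for Tpsb2. The lung epithelial score was at r = 0.46 with Ace, with single genes from -0.72 for Krt18 to 0.89 for Sftpc. Skeletal muscle was at 0.26, keratinocytes at 0.30 and neutrophils at -0.13. All values in these relations share the same libraries.

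**Figure D4:**
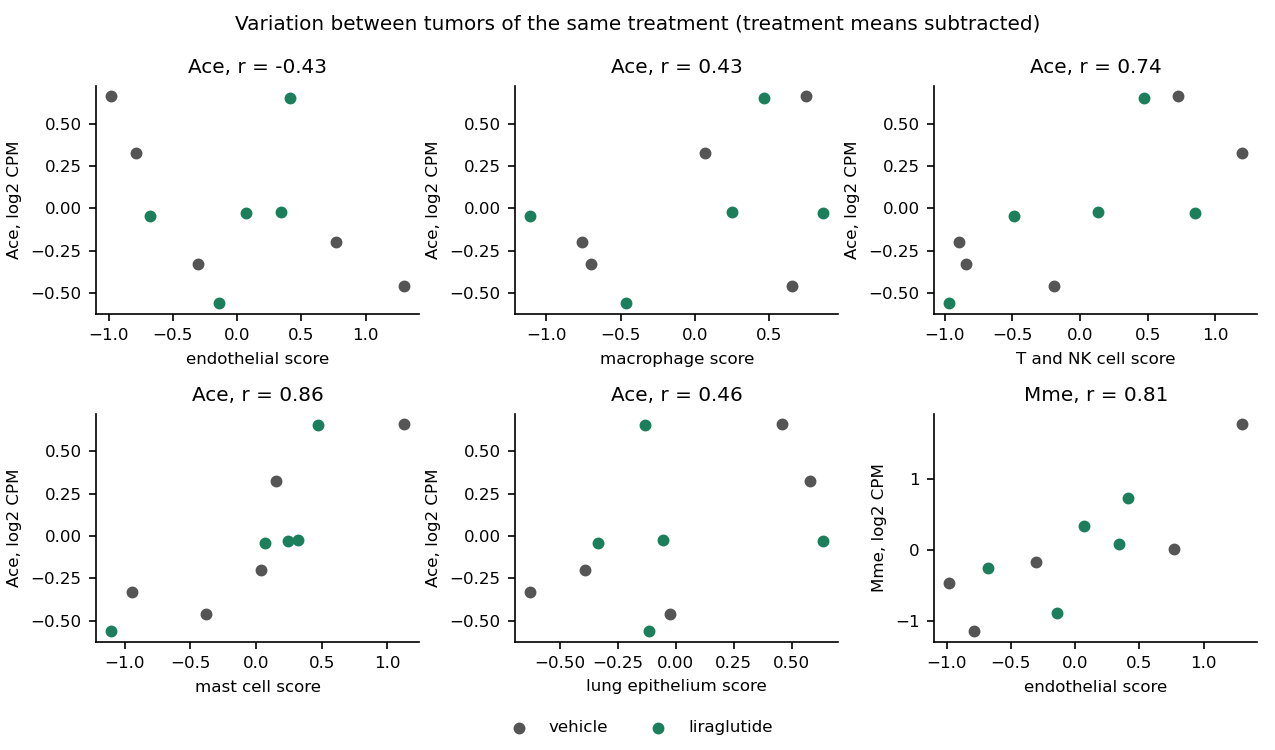
Ace and Mme in log2 CPM against cell type marker scores in the 10 tumors, both with the mean of each treatment subtracted and colored by treatment, with Pearson's r above each panel. Ace was at r = -0.43 with the endothelial, 0.74 with the T and NK cell and 0.86 with the mast cell score, and Mme at 0.81 with the endothelial score, with 0 of the 24 tested relations past the adjusted threshold.

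Correlations between the members themselves were modest. Over the 10 tumors Ace was at r = -0.45 with Enpep, -0.15 with Mme and 0.21 with Atp6ap2, and Enpep was at 0.49 with Mme. Across 16681 genes with a mean of at least 1 CPM, those most like Ace in this variation were Gm44414 (r = 0.959), Slc26a9 (r = 0.957), Antxr1 (r = 0.956), Rev3l (r = 0.955) and Ros1 (r = 0.951). With any 1 tumor left out these stayed at 0.927 or above. Since the genes were picked as extremes on the same tumors, this does not check the relations. Slc26a9, a chloride transporter gene of airway and stomach epithelium, had 3.96 ± 4.88 CPM with vehicle and 14.5 ± 15.02 CPM with liraglutide (SD, n = 5 each), and the receptor tyrosine kinase gene Ros1 had 7.17 ± 9.54 and 32.2 ± 38.3 CPM. Rev3l, a DNA polymerase gene, was at 114 ± 18.8 and 114 ± 10.8 CPM. The genes most unlike Ace were Gm48855 (r = -0.979), the ligand gene Efnb2 (r = -0.962), Baiap2l1 (r = -0.959), Gm13387 (r = -0.956) and Nid1 (r = -0.954), a basement membrane gene. These are the ends of a ranking of all 16681 genes and are given as a description.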

How the data were processed

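After rRNA depletion and paired-end sequencing, the authors aligned reads with Bowtie and TopHat, summarized them by gene with featureCounts and deposited the raw counts for the 10 tumors left after their quality assessment. The methods name GRCm39 and the submitters' processing notes list mm10 and GRCh38. The annotation release, strand setting and treatment of multiply mapped reads are not given in the sources used here, so overlapping and near-identical genes carry that uncertainty. Coordinates and promoter sequences are those of RefSeq on GRCm38.p6, the assembly that mm10 stands for. Of 55401 gene identifiers, 51731 (93.38%, with 98.31% of the counts) were matched without version to GENCODE M39 for symbols and exon lengths, of which 35 had the same version.

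Treatments came from the labels. Counts were filtered (filterByExpr), TMM-scaled and fitted with treatment alone in edgeR 4.0.16 (R 4.3.3) by its quasi-likelihood test with Benjamini-Hochberg adjustment. The labels do not say that same-numbered tumors share a mouse or batch. Correlations used log2 CPM with a prior count of 2 and all 14400 within-treatment orders (scipy 1.17.1). Floors and intervals cover counting error only. Total counts of 9927942 to 14480593 set the floor, and the spread between tumors set the precision of the abundant genes. The alternatives were DESeq2 1.42.0, its size factors, library size alone, all genes with a count, limma-voom (limma 3.58.1), the tumor number as a block, a prior count of 0.5 and each tumor left out. The methods were tested on simulated data. The genes named are the 8 members, the 44 listed pathway genes, the listed cell type markers and the 5 genes most like and most unlike Ace. The members and lists were chosen with earlier results of these data known. Some listed genes and alleles are not reported here. The 5 further marker lists and the summed ratios of low members were added after seeing the data.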

Additional observations from a re-analysis of the deposited data

Results flagged for a closer look

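Among the members and listed pathway genes that passed the filter, 68 groups of 5 tumors were examined for a tumor whose gap to the next, divided by the group's range, was over 0.71. This holds for about 1 group in 20 by chance, and 8 were found. Among the members it was found for Mme, at 4.2 CPM in vehicle tumor 3 with the next vehicle tumor at 1.12 CPM. Vehicle tumor 4 stood out for Cpa3, at 16.2 CPM with the next at 4.2. Vehicle tumor 5 stood out for the peptidase genes Thop1, at 67.4 CPM with the next at 30.4, and Prep, at 118 CPM with the next at 83.9. Liraglutide tumor 3 stood out for Mcpt4, at 273 CPM with the next at 117, and liraglutide tumor 1 for Lnpep, the gene of a receptor-like aminopeptidase, at 590 CPM with the next at 484. Liraglutide tumor 2 was low for Ccn2, at 50.9 CPM with the next at 89.4, and high for the early response gene Egr1, at 57 CPM with the next at 43. No tumor stood apart in this way for Ace, Enpep or Atp6ap2.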

How the results depend on the processing

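With DESeq2's Wald test 17 genes were called where edgeR called 0 (smallest adjusted p 0.000892 against 0.482), Ace among them, but 31345 genes had no adjusted p there, so the share is of 3796. The listed pathway genes called stayed at 0 in the 6 other settings. Leaving out each tumor gave 0 genes, with smallest adjusted p values from 0.0526, without vehicle tumor 4, to 0.9. Across those 6 settings the log2 fold change was 1.10 to 1.14 for Ace, 0.58 to 0.64 for Enpep, 0.03 to 0.08 for Atp6ap2 and 0.23 to 0.61 for Mme, the last with limma-voom. Leaving out tumors gave 0.90 to 1.30, 0.39 to 0.73, -0.07 to 0.23 and 0.01 to 1.09 for the same genes. No Pearson correlation in the 24 tested relations passed under the alternatives run for them, the lowest adjusted p being 0.0833 in the exact permutation test, and no alternatives were run for the 5 further lists. The tumor numbers were not shown to pair tumors. Across genes, the deviations of same-numbered tumors correlated at 0.354, 0.565, -0.075, 0.068 and 0.389, 3 of them over 0.1. The mean was 0.260 against -0.068 for other numbers, and 3 of 10 tumors correlated best with their own number. With the tumor number as a replicate block 0 genes were called (smallest adjusted p 0.228), and the log2 fold change of Ace was 1.10 (SE 0.17). Depth limits Agt, Agtr1a, Agtr2 and Ren1, and the spread between 5 tumors limits the abundant members Ace and Atp6ap2. For Enpep (9 to 37 counts per tumor) and Mme (5 to 40) counting error and spread were not separated.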

Other observations

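Over the 10 tumors with treatment means subtracted, Ace followed some genes of the listed groups and ran against others, given here as values chosen after they were seen. Of the lung lineage, Sftpc was at r = 0.89 and Nkx2-1 at 0.81, while the keratin gene Krt18 was at -0.72 and Krt8 at -0.19. Of the genes induced through the type 1 receptor, Vcam1 was at 0.82 and Icam1 at 0.78, while Tgfb1 was at -0.84. Of the vessel markers, Vwf was at -0.80 and Cldn5 at -0.74, while Kdr was at -0.00 and Tek at 0.19. Of the macrophage markers, Fcgr1 was at 0.72 and the mannose receptor gene Mrc1 at -0.79. Among the pathway genes Scnn1a was at 0.81, Agtrap at 0.74, Cpa3 at 0.72 and Dpp3 at -0.70. Nkx2-1 itself was at 25.2, 17.7, 26.6, 95.4 and 66.6 CPM in vehicle tumors 1 to 5 and at 66.1, 52.2, 109, 99.9 and 132 CPM in liraglutide tumors 1 to 5. Its log2 fold change was 0.99 (SE 0.45, edgeR unadjusted p = 0.0495, adjusted p = 0.52), and its 2 highest vehicle tumors were those highest in Ace.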
